A study of Mus musculus with 96 samples.

Results

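The interferon-induced transmembrane (Ifitm) family was followed in 96 single granulocyte-monocyte progenitors (GMPs) from mouse bone marrow. The 4 family members Ifitm1, Ifitm2, Ifitm3 and Ifitm6 were taken by name from the 23955 genes of the deposited expression table. IFITM proteins are small membrane proteins of the cell surface and of endosomes that hinder the fusion of enveloped viruses with the host membrane. They are classical products of interferon signalling, in which receptors at the surface activate JAK kinases and transcription factors that bind interferon-stimulated response elements in promoters. Several IFITM genes are also known to be active without added interferon in stem and progenitor cells.

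All 96 cells were C57BL/6 and ThPOK-/-, lacking the zinc finger transcription factor ThPOK (gene Zbtb7b). They were enriched by CD117, sorted, captured on a Fluidigm C1 chip and sequenced from full-length cDNA, so 1 genotype was analysed here and wild-type cells were not. The authors' assignment placed 12 cells in proNeu-1, a name used for early committed neutrophil progenitors, 31 in IG2, 27 in no state, and 26 in Multi-Lin-1, a name used for multilineage progenitors. No animal is named for any cell. The 96 cells therefore stand for 1 sample, states were compared without a test, and each SD is a spread over cells.

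Levels are given as TPM, a transcript's share of all transcripts with its length accounted for, or as the deposited log2(TPM + 1). Read depth is unknown, and genes detected per cell (1 TPM or more) take its place. They ranged from 1019 to 5203 genes, with medians of 4127.5 genes in proNeu-1 cells, 3940 in IG2 cells, 2613 in cells without a state and 2950 in Multi-Lin-1 cells. The primary granule genes Mpo and Elane, markers of this progenitor, reached a TPM of 1 in 100% and 95.8% of the 96 cells and 30 TPM in 78.1% and 56.2%. The mean log2(TPM + 1) of Elane was 14.91 in proNeu-1 cells, 13.33 in IG2 cells, 4.20 in cells without a state and 3.58 in Multi-Lin-1 cells. The targeted gene Zbtb7b reached a TPM of 1 in 2 of the 96 cells, with a highest value of 2.12 TPM. A value of 0 cannot be read as absence: even Tbp, a general transcription factor gene, was listed at 0 in 59 of the cells.

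The members lie in 1 cluster on chromosome 7 (GRCm38, GENCODE M21). Ifitm2 spans chr7:140954837-140955987 on the minus strand, Ifitm1 chr7:140967221-140969825 on the plus strand, Ifitm3 chr7:141009586-141010770 on the minus strand and Ifitm6 chr7:141015699-141017924 on the minus strand. Ifitm5, a relative known from bone, precedes them, and the stretch from Ifitm5 to Ifitm6 is 68967 bases long. The coding sequences were alike: 82.1% of aligned bases were identical between Ifitm1 and Ifitm2, 82.1% between Ifitm1 and Ifitm3, and 80.9% between Ifitm2 and Ifitm3. Ifitm6 was more distant, with 68.8% identity to Ifitm1, 68.8% to Ifitm2 and 64.3% to Ifitm3. Transcripts of Ifitm2 and Ifitm3 shared 20 windows of 50 bases, and Ifitm1 and Ifitm3 shared 15. Windows were taken at every position and can overlap, so neighbouring ones may form 1 longer run. The 20 were 3.30% of the Ifitm2 windows and 3.18% of the Ifitm3 windows. No pair of family members shared a window of 100 bases. The read length is not given in the sources used here, so some division of reads between these copies is uncertain.

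The promoters of the 3 members detected in these cells are shown because these windows differ in the interferon response motif. They are RefSeq windows (GRCm38.p6) of 250 bases before and 50 from the annotated start, at chr7:140967826-140968125 for Ifitm1, chr7:140955912-140956211 for Ifitm2 and chr7:141010695-141010994 for Ifitm3, each 5′ to 3′ on the gene's own strand. Capitals mark matches to the core of the interferon-stimulated response element, which was searched on both strands as GAAA, any 2 bases and GAAA again.
Ifitm1: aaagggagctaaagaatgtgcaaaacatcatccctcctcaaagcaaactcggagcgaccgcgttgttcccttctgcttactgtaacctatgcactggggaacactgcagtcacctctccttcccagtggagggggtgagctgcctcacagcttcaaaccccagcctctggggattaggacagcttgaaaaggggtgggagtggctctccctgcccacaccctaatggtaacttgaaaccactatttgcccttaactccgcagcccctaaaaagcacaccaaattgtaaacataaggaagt
Ifitm2: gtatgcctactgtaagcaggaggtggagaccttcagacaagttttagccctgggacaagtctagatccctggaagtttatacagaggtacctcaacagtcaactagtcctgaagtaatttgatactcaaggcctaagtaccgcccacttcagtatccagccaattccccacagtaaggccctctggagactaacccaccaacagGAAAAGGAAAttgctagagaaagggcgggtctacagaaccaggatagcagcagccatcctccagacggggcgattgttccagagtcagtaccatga
Ifitm3: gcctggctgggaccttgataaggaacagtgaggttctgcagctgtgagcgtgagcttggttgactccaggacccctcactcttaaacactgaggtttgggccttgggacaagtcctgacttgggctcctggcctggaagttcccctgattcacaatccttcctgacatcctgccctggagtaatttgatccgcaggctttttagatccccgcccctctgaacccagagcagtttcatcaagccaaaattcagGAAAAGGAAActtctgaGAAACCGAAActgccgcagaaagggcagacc
The Ifitm2 window held 1 match, from base -46 to base -37 relative to the start, and the Ifitm3 window held 2, from base 3 to 12 and from base 20 to 29. The same letters, GAAAAGGAAA, made the Ifitm2 match and the first Ifitm3 match. The windows of Ifitm1 and Ifitm6 held none. Ifitm1 and Ifitm6 have 3 annotated transcripts each, and any starts outside the single window per gene were not searched. Of all 32851 RefSeq promoter windows, 3.44% held at least 1 match. The gamma-activated site TTCNNNGAA, which reads the same on both strands, was found in 8.30% of all windows; Ifitm3 and Ifitm6 held 1 match each, that of Ifitm3 overlapping its second response element, and Ifitm1 and Ifitm2 held none.

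Ifitm2, Ifitm1 and Ifitm3 were among the widely detected genes of these cells, and Ifitm6 was not detected. A TPM of at least 1 was reached by Ifitm2 in 92 of 96 cells (95.8%, exact Clopper-Pearson 95% interval 89.7 to 98.9%), by Ifitm1 in 77 cells (80.2%, 70.8 to 87.6%) and by Ifitm3 in 67 cells (69.8%, 59.6 to 78.7%). Of all genes, 9.48% reached that level in at least 50% of the cells. At 30 TPM the counts were 90, 53 and 53 cells for Ifitm2, Ifitm1 and Ifitm3, and 4.46% of all genes were at 30 TPM in at least 50% of cells. These intervals cover only the counting of cells. Ifitm6 was listed at 0 in all 96 cells, and 3 cells of 96, or 3.12%, is taken as the limit that a count of 0 allows. That limit is on cells with a value in this table and not on cells that express the gene. Its neighbour Ifitm5 was also listed at 0 in every cell, as were 45.4% of all genes. Ifitm7, a copy on chromosome 16 whose coding sequence was 89.3% identical to that of Ifitm1, reached a TPM of 1 in 13 cells.

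**Figure D1:**
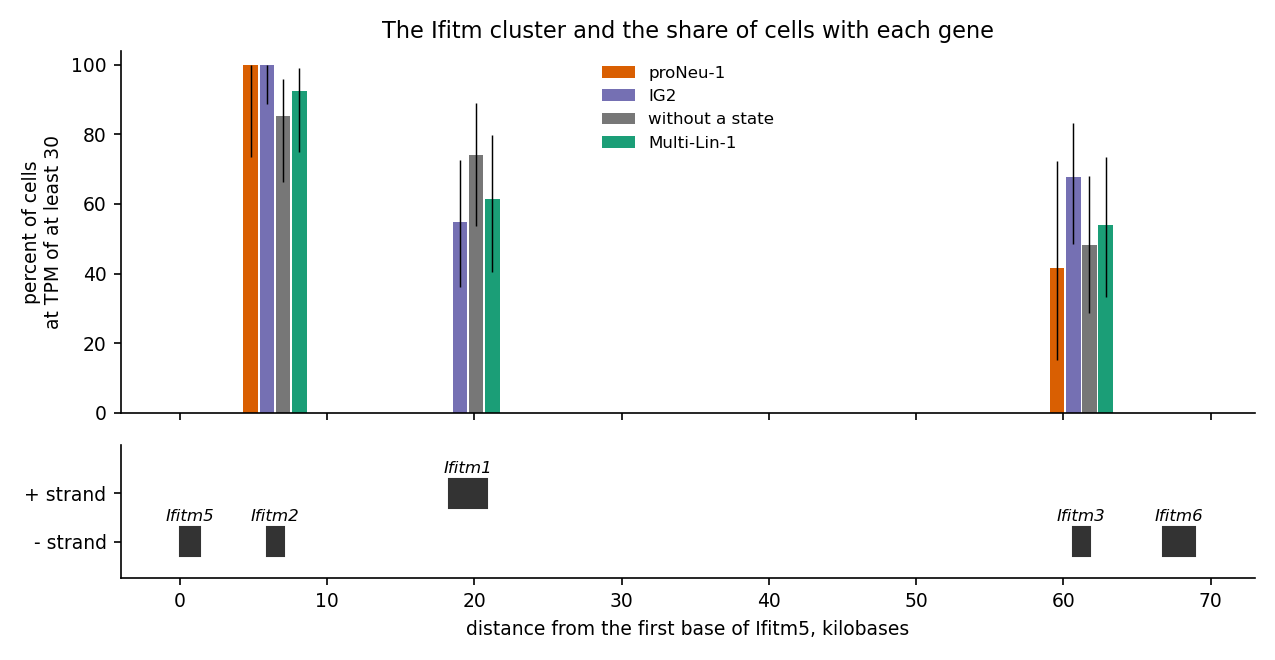
Top: percent of cells with each gene of the Ifitm cluster at a TPM of at least 30, by state, with exact 95% intervals where the share is above 0. Bottom: gene positions to scale, as distance in kilobases from the first base of Ifitm5. Ifitm2 is in nearly all cells of each state, Ifitm1 in 0 of 12 proNeu-1 cells, and Ifitm5 and Ifitm6 in none.

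Ifitm1, known in mice also as a marker of early germ cells, was the member that differed most between the states. In proNeu-1 cells its TPM was 0 at the lowest, 1.04 at the median and 7.43 at the highest. In IG2 cells these values were 0, 94.8 and 1749 TPM. In cells without a state they were 0, 2169 and 11385 TPM, and in Multi-Lin-1 cells 0, 238 and 15448 TPM. Every proNeu-1 cell therefore lay below 10 TPM, while each of the other groups held cells listed at 0 as well as cells above 1000 TPM. The highest cell devoted 1.54% of its TPM to Ifitm1.

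The spread of Ifitm1 was wide, and few cells lay between near-absence and high levels. It reached 30 TPM in 0 of 12 proNeu-1 cells (the same limit of 3 cells is 25% here), 17 of 31 IG2 cells (54.8%, interval 36.03 to 72.7%), 20 of 27 cells without a state (74.1%, 53.7 to 88.9%) and 16 of 26 Multi-Lin-1 cells (61.5%, 40.6 to 79.8%). Only 4 of the 96 cells lay between 5 and 30 TPM. A level of 1000 TPM was reached by 0 proNeu-1 cells, 2 IG2 cells, 16 cells without a state and 9 Multi-Lin-1 cells. IG2 cells that carried Ifitm1 thus mostly did so at 30 to 1000 TPM, with 15 cells in that range, whereas 4 cells without a state were in it.

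Mean Ifitm1 levels on the log2(TPM + 1) scale were 0.96 ± 0.91 in proNeu-1 cells, 4.89 ± 4.07 in IG2 cells, 8.77 ± 4.66 in cells without a state and 6.75 ± 4.80 in Multi-Lin-1 cells (SD over 12, 31, 27 and 26 cells). The difference in mean level was -5.79 for proNeu-1 minus Multi-Lin-1. Of the 8044 genes detected in at least 10% of cells, 3 had a lower difference, namely Apoe, Cpa3 and S100a10, which were looked up after their values were seen. A mean at least 2 lower in proNeu-1 was found for 0.982% of those genes, and the median difference of all of them was 0.52. Against IG2, the proNeu-1 mean of Ifitm1 was lower by 3.92; 1.17% of genes were lower by at least 2, and 5 genes lay lower than Ifitm1. Both differences kept their sign within the 2 sets of 48 cells that share a number in their labels, 078 and 079, whose meaning is not given. In 078 and 079, proNeu-1 minus Multi-Lin-1 was -4.34 and -6.89, and proNeu-1 minus IG2 was -4.09 and -3.73.

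Between the other states the Ifitm1 levels overlapped, and their order depended on the set of cells. The mean was 2.02 higher in cells without a state than in Multi-Lin-1 cells, where 0.547% of genes were at least 2 higher. That difference was 5.04 in the cells numbered 078 and -1.08 in those numbered 079. In the cells without a state the mean was 6.64 ± 4.67 in 12 cells numbered 079 and 10.48 ± 4.02 in 15 cells numbered 078. In Multi-Lin-1 cells it was 7.71 ± 4.61 in 15 cells numbered 079 and 5.45 ± 4.95 in 11 cells numbered 078. The IG2 mean was lower than that of Multi-Lin-1 by 1.87, under the size of 2 that 0.298% of genes exceeded downwards, and the difference was -0.25 in the cells numbered 078 and -3.16 in those numbered 079. The differences between neighbours in the order without a state, Multi-Lin-1 and IG2 were smaller than the SD over cells. That SD does not measure how sure a mean is, and whether these groups differ was not tested.

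Ifitm1 also moved with the number of genes detected in a cell, with a rho of -0.47 over 96 cells. Within states this rho was 0.37 in proNeu-1, -0.38 in IG2, -0.23 without a state and -0.06 in Multi-Lin-1. When the levels were taken as residuals on the number of genes, the proNeu-1 minus Multi-Lin-1 difference was -3.07, the proNeu-1 minus IG2 difference was -3.47 and the IG2 minus Multi-Lin-1 difference was 0.40. The part of depth in these differences was otherwise not tested. TPM values share a fixed sum within a cell. Rescaling the TPM without Mpo, Elane, Prtn3, Ctsg and Ms4a3, a choice made after seeing the data, gave -5.75 for proNeu-1 minus Multi-Lin-1.

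**Figure D2:**
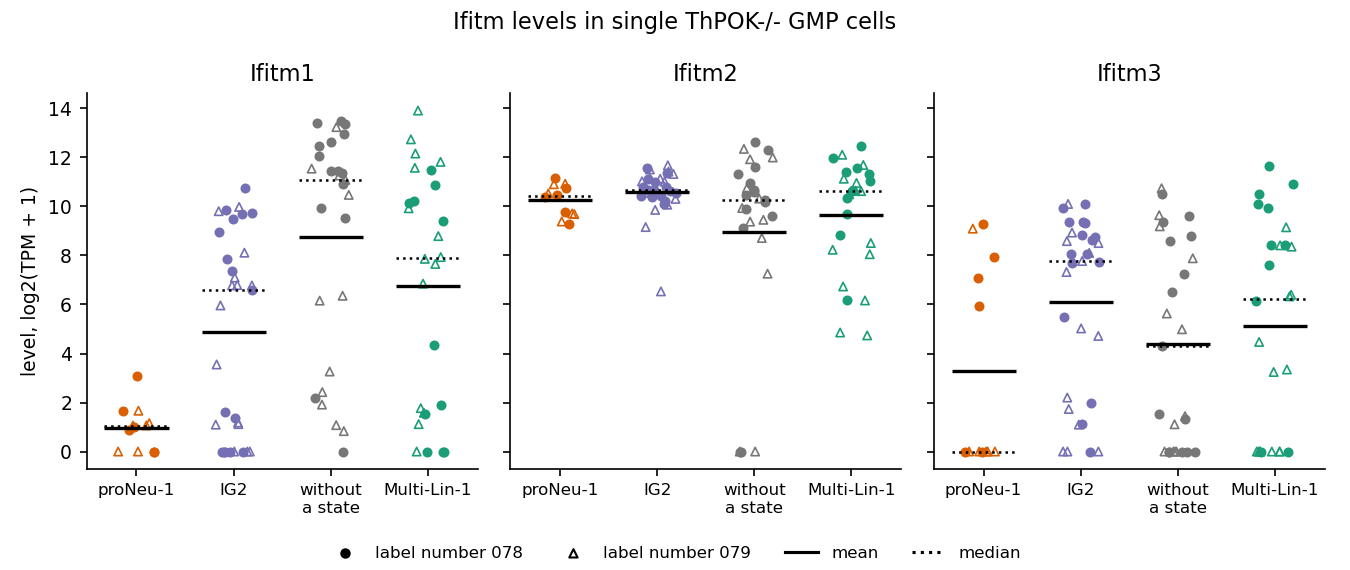
Levels of Ifitm1, Ifitm2 and Ifitm3 as log2(TPM + 1) in each of the 96 cells, by state, with filled circles for the label number 078, open triangles for 079, solid lines for the mean and dotted lines for the median. All 12 proNeu-1 cells lie near the bottom for Ifitm1, while Ifitm2 sits near 10 in most cells of every state.

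Ifitm2 was the steady member of the family. Its TPM in proNeu-1 cells was 628 at the lowest, 1377 at the median and 2261 at the highest. In IG2 cells these values were 91.7, 1617 and 3280 TPM, in cells without a state 0, 1229 and 6428 TPM, and in Multi-Lin-1 cells 25.7, 1578 and 5696 TPM. The groups overlapped almost entirely, and the narrowest range was that of proNeu-1. Mean log2 levels were 10.25 ± 0.64 in proNeu-1 cells, 10.60 ± 0.93 in IG2 cells, 8.95 ± 3.99 in cells without a state and 9.66 ± 2.28 in Multi-Lin-1 cells. None of the 4 differences between states reached 2: proNeu-1 minus Multi-Lin-1 was 0.59, IG2 minus Multi-Lin-1 was 0.94, without a state minus Multi-Lin-1 was -0.70, and proNeu-1 minus IG2 was -0.35. Means at least 2 apart in either direction were found for 15.9% of genes in proNeu-1 minus Multi-Lin-1, 9.50% in IG2 minus Multi-Lin-1, 2.09% in without a state minus Multi-Lin-1 and 3.87% in proNeu-1 minus IG2. By its mean over all cells, Ifitm2 ranked 114 among the 23955 genes.

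The low end of Ifitm2 came from certain cells. All 4 cells in which it was listed at 0 were without a state, and all of them had Ifitm1 at a TPM of at least 30. The 2 other cells with Ifitm2 under 30 TPM were Multi-Lin-1 cells. Ifitm2 moved with the number of genes detected, with a rho of 0.31 over all cells. Within states this rho was -0.42 in proNeu-1, 0.07 in IG2, 0.40 without a state and 0.63 in Multi-Lin-1.

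Ifitm3, the endosomal member best known for blocking influenza virus, was present at lower levels and in a mixed way in every state. Its TPM in proNeu-1 cells was 0 at the lowest, 0 at the median and 620 at the highest. In IG2 cells these values were 0, 218 and 1098 TPM, in cells without a state 0, 18.7 and 1714 TPM, and in Multi-Lin-1 cells 0, 74.2 and 3218 TPM. Each state held cells at 0 and cells far above 30 TPM, so the groups overlapped over most of their range. It was listed at 0 in 7 of 12 proNeu-1 cells, 4 of 31 IG2 cells, 9 of 27 cells without a state and 9 of 26 Multi-Lin-1 cells.

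Mean Ifitm3 levels on the log2 scale were 3.28 ± 4.14 in proNeu-1 cells, 6.08 ± 3.62 in IG2 cells, 4.39 ± 4.18 in cells without a state and 5.13 ± 4.32 in Multi-Lin-1 cells. The proNeu-1 minus IG2 difference was -2.81, with 17 of 8044 genes lower, and within the label numbers it was -2.11 for 078 and -3.42 for 079. The other differences were under 2 in size: -1.85 for proNeu-1 minus Multi-Lin-1, 0.95 for IG2 minus Multi-Lin-1 and -0.74 for without a state minus Multi-Lin-1. The last 2 turned sign between the label numbers, at -0.45 and 1.63 for IG2 and at -3.08 and 0.91 for cells without a state, in 078 and 079.

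Ifitm3 was the member that set the label numbers apart. Its mean level was 3.82 ± 3.88 in the 48 cells numbered 079 and 6.17 ± 3.98 in the 48 numbered 078, and it reached 30 TPM in 20 and 33 of them. The difference of -2.35 was the third lowest among 8044 genes, of which 19 were at least 2 apart in either direction. It was -3.53 within proNeu-1, -2.22 within IG2, -0.30 within cells without a state and -4.29 within Multi-Lin-1. The same difference was -0.80 for Ifitm1 and -0.67 for Ifitm2. The median number of genes detected was 3305 in the cells numbered 079 and 3407.5 in those numbered 078. Its part in the Ifitm3 difference was not tested.

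Every cell carried some Ifitm transcript, and the make-up of the sum differed between the states. The sum of the family had a median of 1471 TPM in proNeu-1 cells, 2175 in IG2 cells, 3898 in cells without a state and 2608 in Multi-Lin-1 cells. Ifitm1 made up 0.097% of the summed family TPM in proNeu-1, 12.02% in IG2, 61.6% without a state and 44.3% in Multi-Lin-1. Ifitm2 made up 90.7% in proNeu-1, 75.1% in IG2, 33.2% without a state and 44.4% in Multi-Lin-1. Ifitm3 made up 9.17% in proNeu-1, 12.9% in IG2, 5.18% without a state and 11.2% in Multi-Lin-1.

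A few high cells weigh on such sums. The median over single cells of the Ifitm1 percentage was 0.049% in proNeu-1 cells, 3.803% in IG2 cells, 58.1% in cells without a state and 20.9% in Multi-Lin-1 cells. The most abundant member of a cell was Ifitm2 in 71 cells, Ifitm1 in 25 and Ifitm3 in none. The 25 cells led by Ifitm1 were 2 IG2 cells, 16 cells without a state and 7 Multi-Lin-1 cells.

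**Figure D3:**
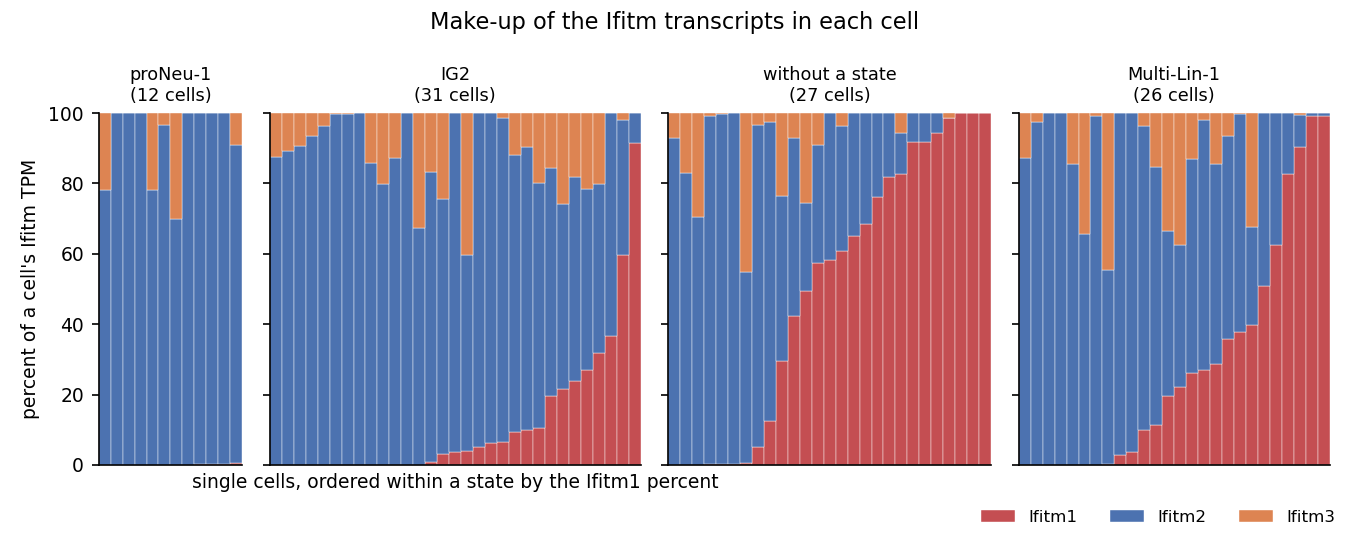
Each bar is 1 cell and shows the percent of its Ifitm TPM from Ifitm1, Ifitm2 and Ifitm3, with cells ordered within a state by their Ifitm1 percent. Ifitm2 fills 69.7% to 100% of a proNeu-1 bar, with a median of 99.8%. Ifitm1 exceeds 50% in 0 of 12 proNeu-1 cells, 2 of 31 IG2 cells, 15 of 27 cells without a state and 6 of 26 Multi-Lin-1 cells.

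How often the members occurred in the same cell depended on the level asked for. At a TPM of 1, 51 cells carried all of Ifitm1, Ifitm2 and Ifitm3, 22 carried Ifitm1 and Ifitm2, 14 carried Ifitm2 and Ifitm3, and 5 carried Ifitm2 alone. The 12 proNeu-1 cells were then split into 3 with all of them, 4 with Ifitm1 and Ifitm2, 2 with Ifitm2 and Ifitm3 and 3 with Ifitm2 alone. At 30 TPM, 28 cells carried all of Ifitm1, Ifitm2 and Ifitm3, 19 carried Ifitm1 and Ifitm2, 24 carried Ifitm2 and Ifitm3, and 19 carried Ifitm2 alone. Ifitm1 was alone in 5 cells, Ifitm1 and Ifitm3 without Ifitm2 occurred in 1 cell, and Ifitm3 was alone in 0 cells. At that level the proNeu-1 cells were split into 7 with Ifitm2 alone and 5 with Ifitm2 and Ifitm3.

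Ifitm2 and Ifitm3 varied together over the cells, and Ifitm1 varied with neither. Over 96 cells, the rho between Ifitm2 and Ifitm3 was 0.432 and the Pearson r was 0.399. It was the second highest rho among 8043 genes in the list of each. By state the rho was 0.265 in 12 proNeu-1 cells, 0.194 in 31 IG2 cells, 0.418 in 27 cells without a state and 0.634 in 26 Multi-Lin-1 cells. By label number it was 0.463 in 079 and 0.340 in 078. In Multi-Lin-1, where it was highest, the number of genes detected had a rho of 0.634 with Ifitm2 and 0.655 with Ifitm3. As residuals on the number of genes and the label number, the rho over 96 cells was 0.359. These points share the fixed sum of TPM within each cell, and the 2 genes share 20 windows of 50 bases, which can overlap.

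Ifitm1, which lies between the other two and on the opposite strand, had a rho of -0.024 with Ifitm2 and of -0.006 with Ifitm3. The gap from Ifitm2 to Ifitm1 is 11233 bases and that from Ifitm1 to Ifitm3 is 39760 bases. Its rho with Ifitm3 was -0.239 in the cells without a state and 0.192 in IG2.

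**Figure D4:**
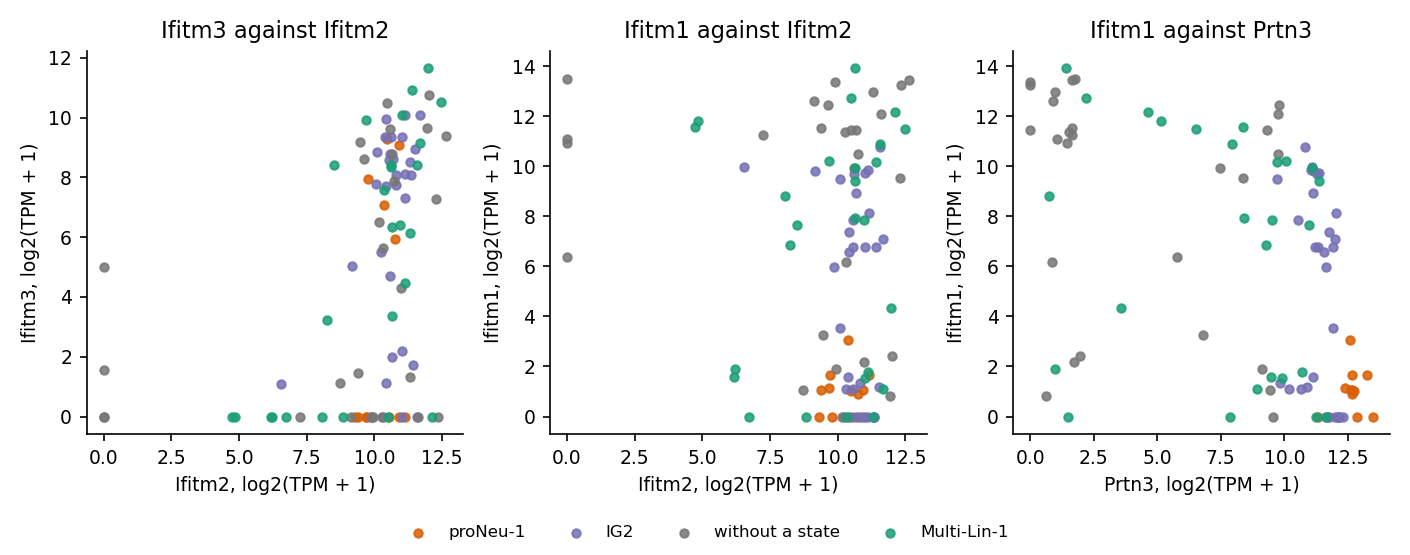
Each point is 1 cell, coloured by state, on log2(TPM + 1) axes: Ifitm3 against Ifitm2, Ifitm1 against Ifitm2, and Ifitm1 against the granule protease gene Prtn3. Ifitm3 is at 0 or low where Ifitm2 is low, Ifitm1 spans its range at high Ifitm2, and the proNeu-1 cells sit at the high end of Prtn3 with low Ifitm1.

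The genes most like Ifitm1 over the cells were Csrp3, a muscle LIM protein gene, at a rho of 0.480, Gata2, a progenitor and mast cell transcription factor, at 0.455, and Apoe, a lipid carrier, at 0.447. The nuclear RNA Malat1 followed at 0.441 and the actin-binding Tmsb10 at 0.415. A rho of at least 0.4 with Ifitm1 was found for 0.112% of 8043 genes. At the other end stood Prtn3, proteinase 3 of the primary granules, at -0.575, Atp6ap2, a proton pump accessory subunit, at -0.526, and Ptgr1, a prostaglandin reductase, at -0.506. These likenesses rest in part on levels that differ between states. Prtn3 averaged 12.59 on the log2 scale in proNeu-1 cells, 11.37 in IG2, 4.18 without a state and 7.43 in Multi-Lin-1. Within states, the rho of Ifitm1 with Prtn3 was 0.046 in proNeu-1, -0.483 in IG2, -0.310 without a state and -0.320 in Multi-Lin-1. That with Gata2 was 0.240 in proNeu-1, 0.026 in IG2, 0.470 without a state and 0.179 in Multi-Lin-1, and that with Csrp3 was -0.237 in IG2.

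Ifitm1 stood opposite to the granule programme across the cells and within IG2. Of 9 genes for the granulocyte-monocyte progenitor and its primary granules, 5 had a rho of -0.3 or lower with Ifitm1 and 0 had one of 0.3 or higher, against 4.998% and 0.448% of 8043 genes. They were Mpo, myeloperoxidase, at -0.485, Elane, neutrophil elastase, at -0.453, Ctsg, cathepsin G, at -0.377, Ms4a3, a membrane protein of these progenitors, at -0.378, and Prtn3. In IG2 alone, Ifitm1 had a rho of -0.639 with Elane and -0.567 with Mpo, while in Multi-Lin-1 these were 0.059 and -0.079. The mean of the 9 genes had a rho with Ifitm1 of 0.658 in the 12 proNeu-1 cells, where Ifitm1 was below 10 TPM, -0.465 in IG2, 0.052 without a state and -0.120 in Multi-Lin-1. The mean log2 level of the 9 genes ranged from 8.51 to 10.80 over proNeu-1 cells, 7.05 to 10.83 over IG2 cells, 0.38 to 8.47 over cells without a state and 1.39 to 7.19 over Multi-Lin-1 cells. The state differences of Ifitm1 run with this list, and its part in them was not tested.

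Markers of other lineages differed in their direction with Ifitm1 from list to list, and within some lists. Of 8043 genes, 0.448% had a rho of at least 0.3 with Ifitm1 and 4.998% had one of -0.3 or lower. In the list of 8 mast cell and basophil genes, Gata2 and Ms4a2 had a rho of at least 0.3, at 0.455 and 0.410. Ms4a2 encodes a subunit of the high-affinity IgE receptor. The other 4 genes of that list detected in at least 10% of cells were Cpa3 at 0.245, Prss34 at 0.149, Mcpt8 at -0.026 and Hdc at -0.274. Hdc encodes histidine decarboxylase. The mast cell protease gene Cma1 was at 0 in all cells. Of 7 monocyte genes, 2 passed that filter, Ly6c2 with a rho of -0.435 and Klf4 with -0.054. Among 8 later neutrophil genes, the 3 that passed it were Cebpe at -0.390, S100a8 at -0.153 and S100a9 at -0.013. Among 8 stem and multipotent genes, the 3 that passed it were Meis1 at 0.327, Hlf at -0.120 and Ly6a at -0.417. The mean level of the mast cell and basophil list ranged from 0.77 to 2.86 in proNeu-1, 0.85 to 5.60 in IG2, 0.08 to 10.28 without a state and 0 to 5.73 in Multi-Lin-1. The mean of 8 erythroid and megakaryocyte genes, which ranged from 0 to 0.95 in proNeu-1, 0 to 2.72 in IG2, 0 to 5.81 without a state and 0.07 to 5.01 in Multi-Lin-1, had a rho of 0.266 with Ifitm1 over all cells and -0.374 within cells without a state. Of the 8 erythroid and megakaryocyte genes, 6 passed the same filter, and 0 of them reached a rho of 0.3 with Ifitm1. Gata1 was at 0.297, Itga2b at 0.175, Klf1 at 0.128, Gp9 at 0.121, Car2 at 0.111 and Car1 at -0.008. The median rho of all 8043 genes with Ifitm1 was -0.097. The part of these cell types in the Ifitm1 levels was not tested.

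Ifitm2 was most like Trmt112, an activator of methyltransferases, at a rho of 0.520, followed by Ifitm3, then Tmem5, a glycosyltransferase gene, at 0.424, Cct7, a chaperonin subunit, at 0.420, and Crlf3, a cytokine receptor-like factor, at 0.417. Its lowest rho values were those of Arglu1 at -0.362, the kinase gene Pim1 at -0.340 and the vesicle tethering gene Vps54 at -0.278. Ifitm3 was most like Dapp1, a phosphoinositide-binding adaptor, at 0.434, followed by Ifitm2, then Hspe1, the mitochondrial co-chaperone, at 0.429, Chaf1b, a chromatin assembly factor, at 0.429 and Gstp1, a glutathione transferase, at 0.423. Its lowest values were those of Sun2, a nuclear envelope protein, at -0.331, Herpud2 at -0.331 and the ribosomal protein gene Rpl13a at -0.330. A rho of at least 0.4 was found for 0.0746% of genes with Ifitm2 and for 0.087% with Ifitm3.

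Of 33 interferon-stimulated genes, 6 reached a TPM of 1 in at least 50% of cells, as Ifitm1, Ifitm2 and Ifitm3 did, where 9.48% of all genes reached it. The median gene of the list reached it in 12.5% of cells and the median of all genes in 1.04%. The 6 genes were B2m, the light chain of MHC class I, in 100% of cells, Ly6e, a surface protein, in 97.9%, Psmb8, an immunoproteasome subunit, in 92.7%, Xaf1 in 80.2%, the GTPase gene Ifi47 in 65.6% and Ifi27 in 55.2%. Next came Tap1 in 42.7%, Eif2ak2 in 38.5%, Irgm1 in 33.3% and Bst2 in 32.3%. Some genes held to be sensitive reporters of type I interferon were detected in few cells. Isg15, a ubiquitin-like modifier, reached a TPM of 1 in 2 cells, Ifit1, a sensor of viral RNA, in 1, and Rsad2, which encodes viperin, in 2. Ifit3, Mx1 and Mx2 were listed at 0 in all. Mx1 is known to be defective in C57BL/6 mice. The master regulator Irf7 reached a TPM of 1 in 5 cells. All 7 interferon genes examined (Ifnb1, Ifng, Ifnk, Ifne, Ifna1, Ifna2 and Ifna4) were listed at 0 in all 96 cells.

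Of 19 receptor and signalling genes, 3 reached a TPM of 1 in at least 50% of cells, against the same 9.48% of all genes: Ifngr1 in 91.7%, Ifnar1 in 83.3% and the kinase gene Jak1 in 80.2%. Of 8 known partners and modifiers of IFITM proteins, 4 did so: Vapa, a sterol transport partner, in 89.6%, Cd81, a tetraspanin, in 77.1%, Nedd4, a ubiquitin ligase, in 73.96% and Zdhhc20, a palmitoyltransferase, in 63.5%. Of 12 genes near the cluster, Rnh1 at 63.5% and Sirt3 at 55.2% did so.

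**Figure D5:**
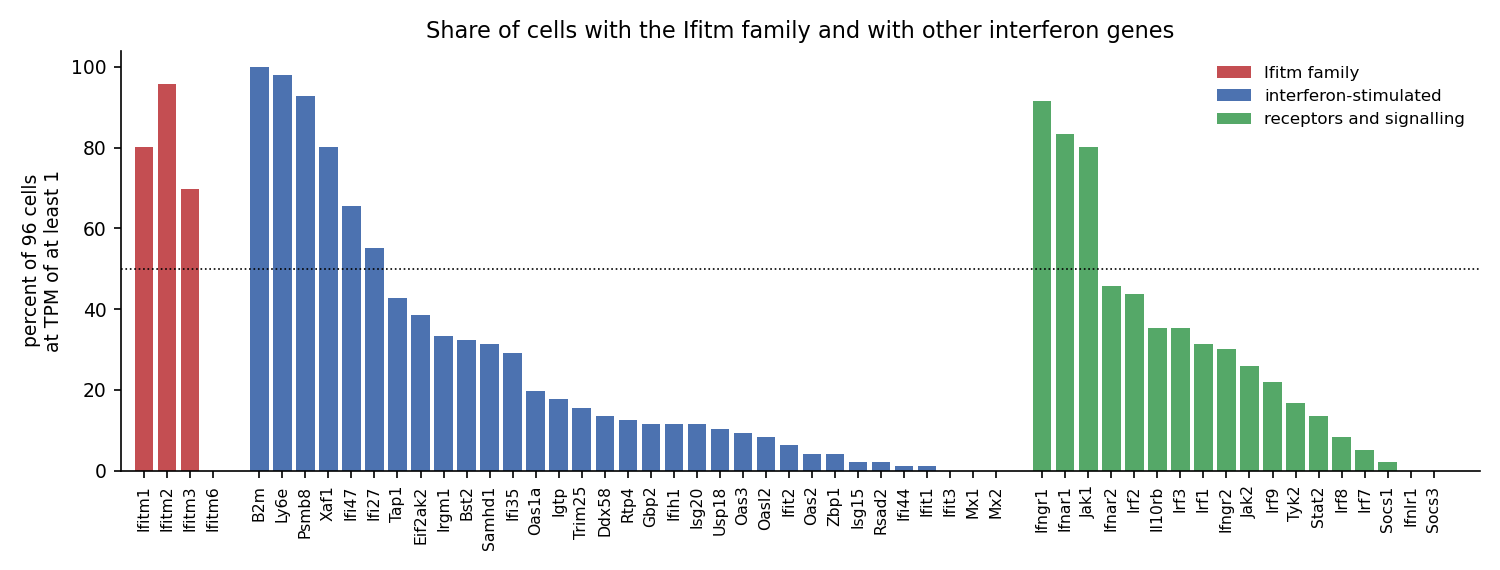
Percent of the 96 cells in which each gene reached a TPM of at least 1, for the 4 Ifitm genes, 33 interferon-stimulated genes and receptor and signalling genes, with a dotted line at 50%. Ifitm2 at 95.8% stands with B2m, Ly6e and Psmb8, Ifitm1 and Xaf1 are both at 80.2%, and Ifitm3 at 69.8% is near Ifi47 at 65.6%. Isg15, Ifit1 and Mx1 are near or at 0.

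Few interferon-stimulated genes had a rho of 0.3 or more with an Ifitm member over all cells, as was so of the other genes tested. Of the 21 such genes detected in at least 10% of cells, 1 had a rho of at least 0.3 with Ifitm1, Ly6e at 0.370, 0 had one with Ifitm2 and 0 with Ifitm3, against 0.448%, 1.38% and 1.06% of 8043 genes. The median rho of the 21 genes was 0.022 with Ifitm1, 0.096 with Ifitm2 and 0.063 with Ifitm3, and the median of those 8043 genes was -0.097, 0.073 and 0.045. The mean level of the list had a rho of 0.037 with Ifitm1, 0.245 with Ifitm2 and 0.101 with Ifitm3 over all cells. In Multi-Lin-1 cells these were 0.344, 0.472 and 0.398, and in IG2 cells 0.014, -0.024 and -0.173. In proNeu-1 cells they were 0.238, 0.196 and 0.250, and 0.302, 0.312 and 0.027 without a state. The part of the number of genes detected, which moved with Ifitm2 and Ifitm3 in Multi-Lin-1, was not tested. Of 14 detected receptor and signalling genes, Jak1 had a rho of 0.396 with Ifitm1. Between proNeu-1 and Multi-Lin-1, 2 of the 21 interferon-stimulated genes had means at least 2 apart, where 15.9% of the 8044 genes that passed the same detection filter were that far apart in either direction. These were Ifi27, with a mean log2 level of 5.74 in proNeu-1 cells and 3.21 in Multi-Lin-1 cells, and Ifi35, with 4.04 and 1.73. Both were higher in proNeu-1, where Ifitm1 was low. Xaf1 differed by less than 2 and was lower in proNeu-1, at 1.54 against 3.41 in Multi-Lin-1. The median difference of the 21 genes was 0.28.

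Splicing values added little on this family. Percent spliced in is deposited as a fraction without read counts. The 80855 events had a median of 8 cells with a value. Ifitm1 had 3 events, each with a value in 4 cells, 2 without a state and 2 Multi-Lin-1. Their coordinates lie within the GRCm38 position of the gene. The junction from 140968123 to 140968240 on chromosome 7, annotated as an alternative 5' splice site, had a fraction of 1 in 3 of those cells. The one from 140968051, annotated as an alternative promoter, had a fraction of 1 in the other cell, so both junctions were seen. A junction from 140967566, also annotated as an alternative promoter, had 0 in all 4. Ifitm6 had 2 events with a value in 0 cells, and Ifitm2 and Ifitm3 had 0 events.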

How the data were processed

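Single-cell libraries were made with SMARTer and Nextera XT chemistry, per the labels' protocols. The authors deposited log2(TPM + 1) per gene, and the TPM of each cell summed to 1e+06. They also deposited splicing values as a fraction without counts, and a table of states. Bowtie2, RSEM, STAR, mm9 and mm10 are named in the submitters' processing notes without versions or roles. Here TPM was recovered by undoing the log2 with its pseudocount of 1. A gene was called detected at 1 TPM, and comparisons over genes used the 8044 genes detected in at least 10% of cells. Python 3.11.15, NumPy 2.4.6, pandas 2.3.3 and SciPy 1.17.1 gave means, SDs, exact Clopper-Pearson 95% intervals, Spearman's rho and Pearson's r; Biopython 1.88 aligned coding sequences. Scripts were checked on simulated data. No test between states was run, since the cells form 1 sample and how states were assigned is not given in the sources used here; the states may rest on these same values. No pair of cells was identical, and the highest r between a pair was 0.685. For each member detected in at least 10% of cells, the 5 genes with the highest rho and the 3 with the lowest were named if the sign was the same in both label numbers. The members and gene lists were chosen with earlier results of these data known. The 1142 splicing columns and 511 state entries that no label maps to these cells were not used. Doublets were not called. Alternatives covered thresholds, pseudocounts, depth, label numbers and measures of likeness. A gene of the receptor and signalling list is counted but not reported here.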

Additional observations from a re-analysis of the deposited data

How the results depend on the processing

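No paired analysis was possible because all cells belong to 1 group. Of 108 alternatives to the 12 differences between states, 2 moved the value by more than the SD over cells. These were the median of Ifitm3, which gave -6.23 for proNeu-1 minus Multi-Lin-1 and -7.77 for proNeu-1 minus IG2. The SD over cells is wide, at 4.03 for Ifitm1 in proNeu-1 minus Multi-Lin-1, so the low count does not show stability. That Ifitm1 difference ran from -9.44 to -3.07 over the settings without counting as moved. For Ifitm1 in IG2 minus Multi-Lin-1 the range was -3.16 to 0.40, which also did not count. The sign turned for 1 difference of at least 2 in size: Ifitm1 in cells without a state minus Multi-Lin-1 was -1.08 with the label number 079 only. Of the 8 differences under 2 in size, the sign turned in 11 of 72 alternatives, 4 of them for Ifitm2 in proNeu-1 minus Multi-Lin-1. The share of all cells with Ifitm1 was 59.4% at 5 TPM and 55.2% at 30 TPM, and that with Ifitm3 was 55.2% at 30 TPM and 79.2% with the label number 078 only. The rho of Ifitm1 with Ifitm3 was -0.239 in cells without a state, and that of Ifitm2 with Ifitm3 was 0.194 in IG2 and 0.634 in Multi-Lin-1 cells. The lists of most like genes were less stable. Of the 5 named for Ifitm1, 1 was among the top 5 by Pearson's r, 0 with residuals on genes detected and label number, 0 in 078 and 2 in 079. For Ifitm2 the count was 0 under each of these, and for Ifitm3 it was 3 by Pearson's r, 4 with residuals, 0 in 078 and 0 in 079. At 30 TPM, 3 interferon-stimulated genes, 2 receptor and signalling genes, 2 partners and 0 locus neighbours were in at least 50% of cells. Of all genes, 4.46% were. The causes were not tested. Unknown depth and the small number of cells per state limit every value for a low gene.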
